A study of Homo sapiens with 24 samples.

Results

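Of the 24 RNA-seq libraries in the series, 6 are described here: 3 of MDA-MB-231 cells with a non-targeting shRNA and 3 of the same line labelled MDM2 shRNA, chosen by their titles and compared over all genes counted. MDA-MB-231 is an established human triple-negative breast cancer line, grown in DMEM with 10% serum, and the question posed by the design is what loss of MDM2 does to its transcripts. The remaining 18 libraries are the same hairpin pair in a second triple-negative line, MDA-MB-436, and both lines treated with an MDM2 degrader (PROTAC YX-2-30) or its solvent DMSO, at 3 libraries a group. No genetic alteration other than the hairpin is named for these cells. The hairpin's sequence, the vector, the time after its introduction and the number of clones are not given in the sources used here. Nor do the labels tell whether the libraries in one group stem from independent cultures, and the p-values therefore reflect no more than the variation among the libraries sequenced.

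MDM2 is a RING-type ubiquitin ligase best known for marking the tumour suppressor p53 for destruction by the proteasome. It sits in a feedback loop, since its own gene is a target of p53-family factors, and its relative MDM4 binds the same factors. In cells whose p53 has lost its function, work on MDM2 has turned to the related proteins p63 and p73 and to other substrates. A short hairpin RNA lowers a protein by having its mRNA cut, whereas a PROTAC brings the protein itself to a ubiquitin ligase. A fall in the targeted mRNA is therefore looked for with the first only.

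MDM2 mRNA was not lower in the libraries labelled MDM2 shRNA. Its level was 19.7, 22.5 and 11.3 CPM (counts scaled to a common library total after adjustment by the trimmed mean of M-values) for the non-targeting hairpin and 24.2, 23.2 and 30.2 CPM for the MDM2 label. The second set of values lay above the first without overlap, but the fitted log2 change of 0.54 ± 0.25 (SE, n = 3 a group) did not pass, with an adjusted p of 0.191 by edgeR's quasi-likelihood test over all 19197 genes. The 95% interval of the fold ran from 0.955 to 2.21. Without the third non-targeting library, the lowest of the 6, the change was 0.30 (adjusted p = 0.244), and the other 5 fits without 1 library gave 0.41 to 0.74, none of them called. MDM2 lies on chromosome 12 and some of its exons overlap another annotated gene, so part of its count may belong to that neighbour. Because the targeted transcript does not bear out the label, these are called the libraries labelled MDM2 shRNA throughout, and every direction below is theirs relative to the non-targeting libraries.

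The relatives of MDM2 and of its best known partner varied. TP73, which encodes p73, stood at 14.3, 12.4 and 13.8 CPM in the controls and 16.8, 18.9 and 17.6 CPM in the labelled libraries, a log2 rise of 0.40 ± 0.092 (adjusted p = 0.0257). That call was lost in 5 of the 6 fits that left out 1 library, where the adjusted p reached 0.0795. TP63, which encodes p63, was near the detection limit, with 63 counts over the 3 controls and 3 counts over the 3 labelled libraries, a ratio of 0.0590 with a 95% counting interval of 0.0119 to 0.181. Its adjusted p was 0.0445, and 5 of the 6 fits without 1 library did not call it. CDKN1A, the cell cycle inhibitor p21, was at 79.5, 31.8 and 78.7 CPM against 81.1, 197 and 194 CPM, so 1 labelled library lay beside the highest control, and the log2 change of 1.31 ± 0.45 did not pass (adjusted p = 0.0893). On leaving out 1 library its log2 change ran from 0.99 to 1.63, and it passed in 1 of the 6 fits, that without the first labelled library (adjusted p = 0.0471), against 0.135 to 0.211 in the other 5. It also passed in the fit to the 12 MDA-MB-231 libraries (adjusted p = 0.0209). MDM4 was at 5.54, 70.8 and 8.44 CPM against 11.9, 50.6 and 7.43 CPM, with 1 library of each group far above its partners and no call in any fit. Exons of TP73 and CDKN1A overlap another annotated gene, which leaves their counts uncertain.

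**Figure D1:**
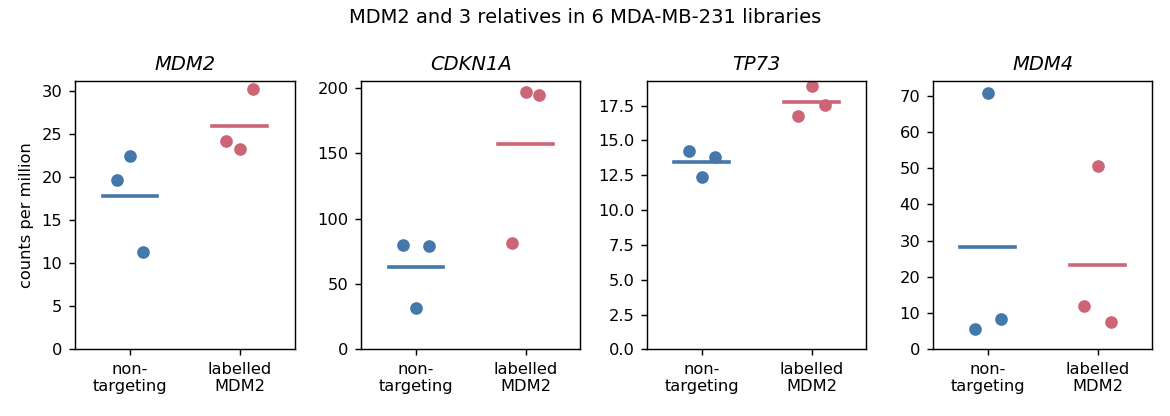
Level of MDM2, CDKN1A, TP73 and MDM4 in each MDA-MB-231 library, in CPM, for the non-targeting group and the group labelled MDM2 shRNA; dots are libraries and bars are means of 3. MDM2 was not lower in the labelled group (11.3 to 22.5 against 23.2 to 30.2 CPM), and 1 CDKN1A value of the labelled group (81.1 CPM) lies beside the highest control (79.5 CPM).

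Each library held 57909474 to 106944295 counts in genes, the deepest being the first non-targeting library, which sets the precision of low values. Some further measurements bear on what the labels stand for. The non-targeting libraries and the DMSO libraries of the same line, which are separate control groups by label, differed in 0 of 20675 genes (0% called) by edgeR's quasi-likelihood test with adjustment, with 903 genes at an unadjusted p under 0.05; DESeq2 called 40 and limma voom 0. The libraries labelled MDM2 shRNA and the PROTAC libraries, which are separate treatments by label, differed in 3 genes (0.0145% called), with 1113 at an unadjusted p under 0.05. Distances between pairs of libraries showed the same: the median squared difference, divided by the counting variance, was 8.21 to 9.22 among non-targeting libraries, 8.36 to 10.9 between non-targeting and DMSO libraries, 7.79 to 13.5 between labelled and PROTAC libraries and 29.3 to 36.8 between non-targeting and labelled libraries. Whether the hairpin groups and the drug groups are separate experiments was not tested, and every result below is one of the labelled group against its own controls.

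**Figure D2:**
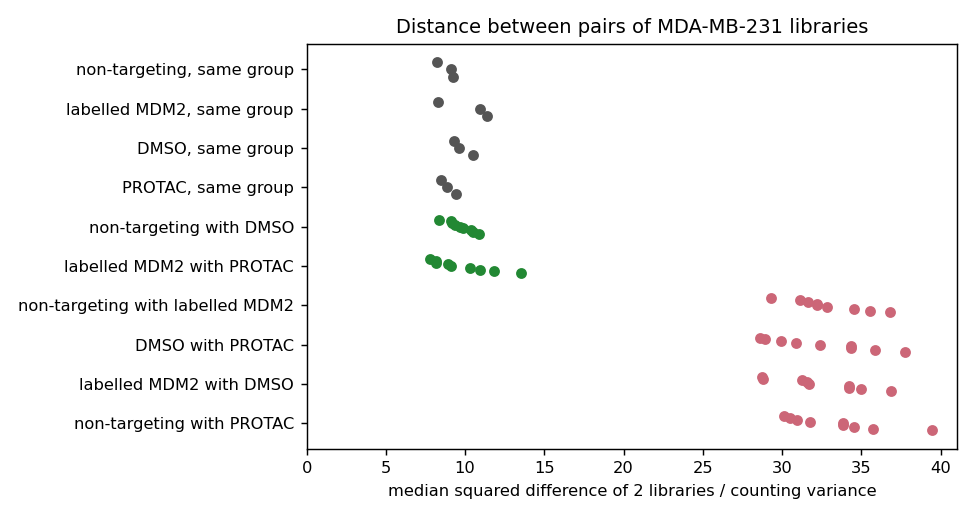
Distance between pairs of MDA-MB-231 libraries, as the median over genes of the squared difference divided by the variance that counting alone gives; each dot is 1 pair. Pairs within a group, non-targeting with DMSO, and labelled with PROTAC fall between 7.79 and 13.5, while pairs of a control with a treated library lie at 28.6 to 39.5.

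The cells expressed markers of a mesenchymal-like breast cancer line, and some luminal markers too. All but 1 of 14 markers of the mesenchymal-like state exceeded 1 CPM. Of 15 luminal markers, 4 averaged under 1 CPM: PGR with no counts, and ESR1, CDH1 and TFF1 at 0.215, 0.154 and 0.143 CPM. GATA3 and FOXA1 averaged 7.48 and 5.89 CPM. The luminal keratins KRT19, KRT8 and KRT18 averaged 360, 329 and 216 CPM over the 6 libraries. The summed level of the mesenchymal-line markers was 10954 to 12458 CPM in the controls and 7522 to 7796 CPM in the labelled libraries, and 10 of the 14 fell, none rose. The luminal markers summed to 1079 to 1125 CPM against 1078 to 1135 CPM. Leukocyte markers summed to 141 to 160 CPM against 155 to 170 CPM, with 5 of 15 at 0, CD3E, CD2, MS4A1 and SPI1 among them. Their largest means over the 6 libraries were those of CD74, CD68 and HLA-DRA, at 104, 34.0 and 10.6 CPM, and PTPRC averaged 4.04 CPM. Endothelial markers summed to 233 to 242 CPM against 225 to 244 CPM, with TEK, ERG and EMCN at 0. ESAM alone averaged 217 CPM, and TIE1 and KDR 8.61 and 8.27 CPM. Fibroblast markers summed to 24.1 to 26.3 CPM against 45.6 to 48.2 CPM, of which COL1A1 and PDGFRB rose, with DCN, FAP and POSTN at 0.

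In all, 1810 genes rose (9.43% of 19197 tested) and 2143 fell (11.2%) in the libraries labelled MDM2 shRNA, at an adjusted p under 0.05 by edgeR's quasi-likelihood test. Most changes were small: 305 genes rose at least 2-fold (1.59%) and 502 fell at least 2-fold (2.61%). The 3 values of one group all lay above or below the 3 of the other for 40.8% of genes. Without scaling beyond library totals, the median of all genes moved up by 0.11 on the log2 scale and the split became 3187 higher and 1497 lower, 68.0% higher against 45.8% in the scaled fit, so each direction below is relative to the bulk of genes. Many genes overlap another on the opposite strand, and no strand setting of the counting is given in the sources used here, so reads of such pairs cannot be told apart. The number of rises was 1037 without the first, 1161 without the second and 1193 without the third non-targeting library, and the number of falls was 1366 without the first.

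Among called protein-coding genes of at least 50 CPM whose groups did not overlap, the largest rise was that of MAFF. MAFF is a small MAF transcription factor that pairs with stress-response bZIP proteins. Its level was 20.9, 23.0 and 19.3 CPM in the controls and 94.6, 92.4 and 95.1 CPM in the labelled libraries, a log2 rise of 2.16 ± 0.075 (adjusted p = 4.17e-05). The groups were far apart, and the labelled values lay within 3 CPM of each other. CPA4, a secreted carboxypeptidase, stood at 22.8, 23.0 and 26.0 CPM against 78.5, 79.2 and 74.6 CPM (log2 rise 1.70 ± 0.071). DUSP1, a phosphatase that switches off MAP kinases, stood at 46.7, 50.1 and 50.5 CPM against 145, 163 and 148 CPM (1.63 ± 0.064). IL11, a cytokine of the IL-6 family, stood at 133, 136 and 145 CPM against 365, 357 and 347 CPM (1.37 ± 0.049). Lack of overlap between the groups was a condition of entry to this ranking.

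In the same ranking, the other large rises of abundant genes were those of CCNE2, RRM2, ECM1, TLR4, CENPO and STK4. CDKN1A, at a log2 change of 1.31, was not called and so was not ranked. ECM1, an extracellular matrix glycoprotein, was at 43.6, 42.6 and 42.0 CPM against 87.3, 97.0 and 86.6 CPM, and TLR4, the receptor for bacterial endotoxin, at 40.1, 40.5 and 41.8 CPM against 88.4, 79.5 and 87.6 CPM. STK4, a core kinase of the Hippo pathway, was less even: 28.6, 28.8 and 25.5 CPM against 124, 123 and 35.8 CPM. The third labelled library was close to the controls, the adjusted p was 0.0326, and it missed the threshold in 5 of the 6 fits without 1 library, up to 0.103. For CENPO, a centromere protein, the change in the labelled libraries was 1.41 ± 0.15, and in the PROTAC libraries -0.04, but the difference of 1.46 ± 0.45 did not pass (adjusted p = 0.974). Exons of CCNE2, RRM2, TLR4 and CENPO overlap another annotated gene, which leaves their counts uncertain.

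The largest fall of an abundant gene, ranked in the same way, was that of CDH4, which encodes R-cadherin, an adhesion molecule. It stood at 239, 244 and 225 CPM in the controls and 18.3, 21.2 and 18.2 CPM in the labelled libraries, a log2 change of -3.62 ± 0.08 or a fold of 0.0814 (adjusted p = 1.51e-05). No other abundant gene in that ranking lost as large a share of its transcripts. DPYD, the enzyme that breaks down pyrimidines, stood at 115, 108 and 105 CPM against 29.8, 31.3 and 31.8 CPM (-1.82 ± 0.058). PTPRM and PTPRG, receptor tyrosine phosphatases, were at 140, 155 and 148 CPM against 41.4, 38.7 and 46.8 CPM, and at 84.6, 81.2 and 81.0 CPM against 22.1, 25.2 and 26.1 CPM. Exons of DPYD, PTPRM and PTPRG overlap another annotated gene, which leaves their counts uncertain.

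Replication histones supplied H2AC6, H2BC12 and H1-2 to the 10 largest falls, which also held HJURP, a chaperone of the centromere histone, and ITGA2, an integrin subunit. HJURP was at 92.0, 147 and 151 CPM against 45.1, 38.9 and 43.5 CPM. ITGA2 was at 406, 412 and 395 CPM against 84.9, 212 and 108 CPM, without overlap but with the second labelled library apart. Its call (adjusted p = 0.0162) was lost without the second non-targeting library (0.0501) or the third labelled one (0.0593). Exons of HJURP overlap another annotated gene, which leaves its count uncertain.

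**Figure D3:**
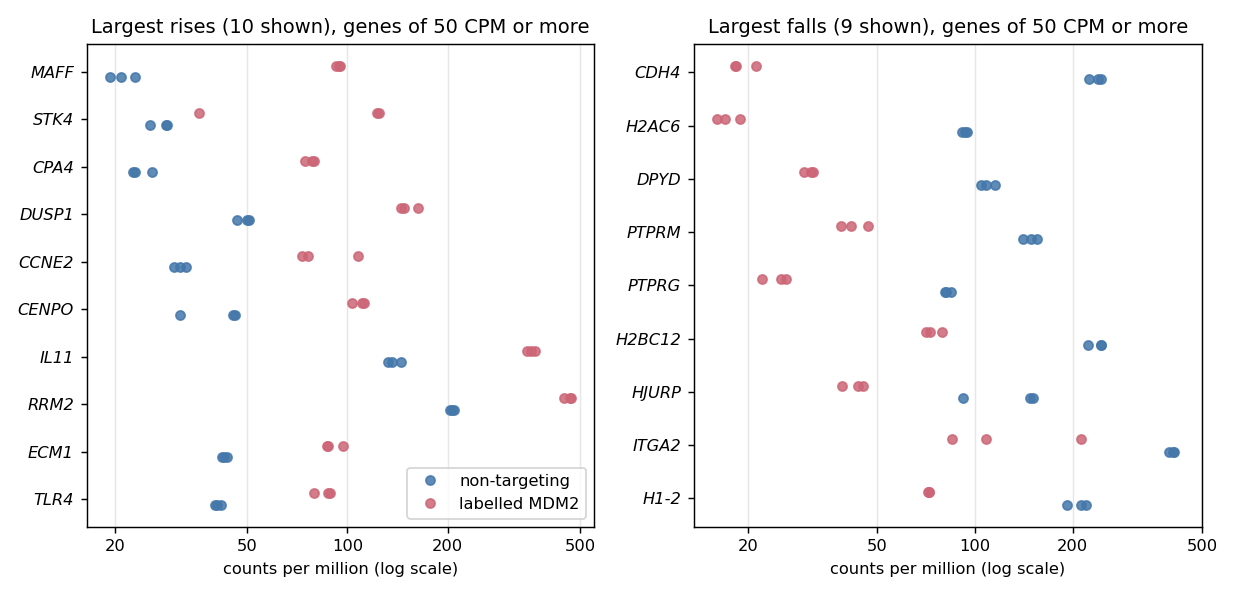
Level of the 10 largest rises and 9 of the 10 largest falls among genes whose mean reached 50 CPM, in CPM on a log scale; each dot is 1 library, blue for the non-targeting group and red for the group labelled MDM2 shRNA. Only called genes whose groups did not overlap were ranked, so the separation seen for every gene follows from the choice. For STK4, 1 labelled value (35.8 CPM) lies near its controls.

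Genes that fell most had long genomic spans. Called protein-coding genes with at least 1 CPM and no overlap between groups were ranked by their change. Of the 8 largest falls, 7 spanned 200 kb or more, from annotated start to end, while none of the 8 largest rises did. Of the 10 abundant genes with the largest falls, 4 were that long: CDH4 (688 kb), DPYD (917 kb), PTPRM (840 kb) and PTPRG (736 kb). The pattern held over all protein-coding genes tested. In the class of 500 kb and over, 126 of 200 fell (63.0%) and 9 rose, with a median log2 change of -1.13. From 200 to 500 kb, 374 of 862 fell (43.4%) and 32 rose, with a median of -0.37. From 100 to 200 kb the median was -0.09, which turned to 0.02 without scaling beyond library totals, and below 100 kb the medians were 0.01 to 0.06. Of all 13878 protein-coding genes tested, 14.2% fell.

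Long genes tend to be transcribed at low levels and to have many exons, so the classes were also read at matched level and transcript length. Of the genes of 500 kb and over, 60.6% fell among those under 5 CPM, 62.1% among those of 5 to 30 CPM and 70% of the 40 at 30 CPM and over. Of the genes under 10 kb, 3.79, 5.73 and 18.1% fell in the same ranges. In the class of 500 kb and over the change was smaller at higher level, with medians of -1.70, -1.07 and -0.69 in these 3 ranges. Under 10 kb the medians were 0.28, 0.13 and -0.04. Level was the mean over the 6 libraries, labelled ones included, so a large fall itself moves a gene to a lower range. For exonic lengths under 4 kb, 4 to 8 kb and 8 kb and over, the medians of the longest class were -1.60, -1.61 and -1.01. Those of the class under 10 kb were 0.06, 0.03 and -0.0021, the last over 13 genes. Only 11 genes of 500 kb and over have no overlap with another gene, and 9 of them fell. Protein-coding genes of 100 kb and over took 14.8, 15 and 14.5% of all counts in the controls and 13.7, 13.4 and 14.1% in the labelled libraries, and their p of 0.1 in an exact 2-sided permutation test is the smallest that 3 against 3 can give.

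Genes with large falls serve different cell functions. AKAP6, an anchor of protein kinase A with a span of 508 kb, was at 2.34, 2.63 and 1.80 CPM in the controls, and at 0 in 2 labelled libraries and 0.110 CPM in the third. PRKG1, the cGMP-dependent kinase, spans 1307 kb and was at 7.11, 7.15 and 7.14 CPM against 0.316, 0.183 and 0.566 CPM. RAD51B, a gene of homologous recombination with a span of 910 kb, was at 4.99, 5.78 and 6.90 CPM against 1.09, 0.914 and 0.786 CPM (log2 change -2.66 ± 0.20). ST6GALNAC3, a sialyltransferase gene of 560 kb, had 142, 78 and 53 counts in the controls and none in the labelled libraries, at least 73.4-fold lower at a floor of 3 counts over the group. MAP2K6, the kinase of p38 MAP kinases, has a shorter span of 139 kb and had 176, 151 and 67 counts against none, at least 106-fold lower at the same floor. Among glutamate receptor and synaptic adhesion genes, 6 of 18 fell and 2 rose, the falls including GRIK2 (log2 change -3.09) and NRXN3 (-1.50). Without any 1 non-targeting library no member of that list rose. Exons of PRKG1 overlap another annotated gene, which leaves its count uncertain.

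**Figure D4:**
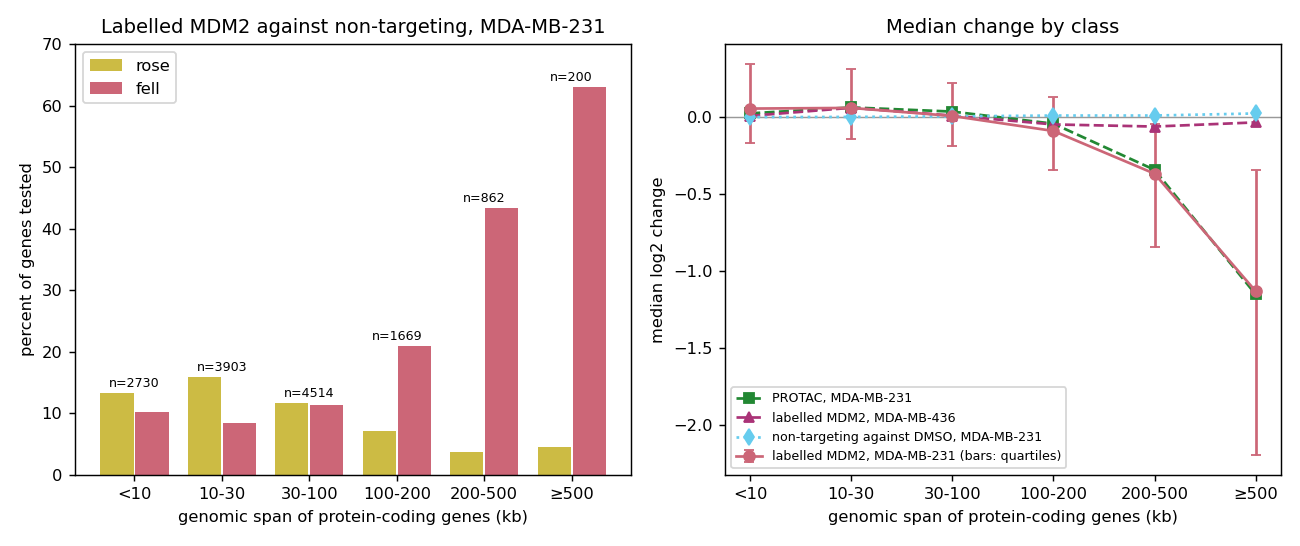
Left, percent of protein-coding genes that rose or fell in the libraries labelled MDM2 shRNA, by class of genomic span in kb, with the number tested above each pair of bars. Right, median log2 change per class, with quartiles for the labelled group in MDA-MB-231 (bars) and medians for the PROTAC, for the labelled group in MDA-MB-436 and for the 2 control groups; the class of 500 kb and over lies at -1.13, -1.15, -0.04 and 0.02.

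Mitotic genes fell together. Of 38 tested members of a list of spindle, checkpoint and cytokinesis genes, 23 fell and 1 rose, with a median log2 change of -0.46 against 0.00 over all genes. The CHR element (TTTGAA) and CCAAT boxes are known from cell cycle genes that peak in mitosis. Of the called members whose promoter window holds TTTGAA, the 2 with the smallest adjusted p are shown, and both also hold CCAAT. Capitals mark each match on either strand in the 250 bases before the RefSeq start, GRCh38.p14.
CDC20, chr1:43358731-43358980, plus strand: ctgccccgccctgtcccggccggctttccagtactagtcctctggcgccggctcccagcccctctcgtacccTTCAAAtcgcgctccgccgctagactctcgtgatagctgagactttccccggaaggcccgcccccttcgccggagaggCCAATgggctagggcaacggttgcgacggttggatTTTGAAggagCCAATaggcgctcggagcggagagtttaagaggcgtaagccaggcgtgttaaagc
PLK1, chr16:23678639-23678888, plus strand: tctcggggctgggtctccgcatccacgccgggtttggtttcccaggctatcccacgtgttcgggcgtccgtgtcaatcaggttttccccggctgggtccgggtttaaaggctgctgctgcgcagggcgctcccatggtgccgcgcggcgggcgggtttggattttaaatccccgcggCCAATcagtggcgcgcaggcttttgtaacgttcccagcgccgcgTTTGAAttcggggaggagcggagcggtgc
Counted in windows from 250 bases before to 50 after each start, TTTGAA was present in 25 of 41 windows of the mitosis list and 15.2% of all 35116 windows, and CCAAT in 32 of 41 and 34.6%. Windows were found for 31 of the 38 genes. A match is a description of the letters, not a site of binding.

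CDC20, the activator of the anaphase-promoting complex, stood at 546, 527 and 547 CPM in the controls and 227, 235 and 229 CPM in the labelled libraries (log2 change -1.23 ± 0.037, adjusted p = 3.99e-05). PLK1, a mitotic kinase, stood at 144, 139 and 144 CPM against 49.1, 53.6 and 47.7 CPM (-1.50 ± 0.058). CCNB1, cyclin B1, stood at 355, 336 and 338 CPM against 163, 162 and 164 CPM (-1.08 ± 0.04). In each the labelled libraries were lower by more than the spread of either group, which the choice by smallest adjusted p favours. KIF20A and DLGAP5, which act on spindle microtubules, fell by 1.19 and 0.86 on the log2 scale, and PIF1, a DNA helicase, by 1.73. The 1 member that rose was CDK1, the kinase that B cyclins activate (0.42). Exons of PLK1 and KIF20A overlap another annotated gene, which leaves their counts uncertain.

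Genes of DNA replication moved the other way. Of 46 tested members, 22 rose and 5 fell, with a median of 0.23. RRM2, the small subunit of ribonucleotide reductase, stood at 206, 204 and 209 CPM against 471, 447 and 465 CPM (log2 rise 1.16 ± 0.038), and RRM1, the large subunit, rose by 0.51. CDC6, which loads the replicative helicase at origins, stood at 172, 168 and 169 CPM against 274, 257 and 264 CPM (0.64 ± 0.042). The helicase subunits MCM5 and MCM6 fell instead: MCM5 was at 144, 132 and 146 CPM against 76.7, 87.1 and 77.8 CPM, and MCM6 at 118, 118 and 118 CPM against 73.8, 70.4 and 77.1 CPM. The count of falls was 3 without any 1 of the non-targeting libraries, and without scaling 34 rose and 3 fell. CCNE2, an activator of CDK2 at the start of S phase, was at 32.8, 31.5 and 30.2 CPM against 73.0, 76.3 and 108 CPM. Exons of RRM1 overlap another annotated gene, which leaves its count uncertain.

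Homologous recombination, Fanconi anaemia and checkpoint genes rose in 14 of 35 cases and fell in 3 (median 0.23), with 21 rises without scaling. CLSPN, which carries the ATR signal to CHEK1, stood at 174, 178 and 155 CPM against 315, 254 and 325 CPM (log2 rise 0.82 ± 0.10), and XRCC2, BLM, FANCI and RBBP8 rose by 0.63, 0.70, 0.47 and 0.44. The falls were RAD51B, WEE1 and H2AX, the last 2 named after their values were seen. Among E2F and RB family genes, 2 of 13 rose, led by E2F8, a repressor of the family, at 35.8, 36.3 and 35.7 CPM against 52.5, 58.1 and 58.7 CPM, and E2F4 fell, with 6 rises and no fall without scaling. In the scaled fit 9.43% of all genes tested rose and 11.2% fell, so counts this small in 13 genes do not set that list apart. Cyclin D1 (CCND1), which drives entry into the cycle, fell from 1284, 1294 and 1249 CPM to 683, 755 and 746 CPM (-0.81 ± 0.046), cyclin D2 (CCND2) fell by 0.60, and CCND3 and CDKN1C rose. The rises of that cyclin and inhibitor list numbered 0 without the first or the third non-targeting or the second labelled library, and the E2F4 call was lost in 5 of 6 such fits. Exons of CLSPN, FANCI, RBBP8, WEE1, E2F8, CCND1, CCND2 and CCND3 overlap another annotated gene, which leaves their counts uncertain.

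Replication-dependent histone transcripts fell as a class. They made up 0.0668, 0.0632 and 0.0692% of all counts in the controls and 0.0243, 0.0248 and 0.0240% in the labelled libraries, a ratio of 0.367 (exact 2-sided permutation p = 0.1, the smallest 3 against 3 can give). Of 32 members tested, 18 fell and none rose, with a median log2 change of -1.20, while a further 21 members were too low for the filter. H2AC6 stood at 93.3, 91.0 and 94.5 CPM against 16.9, 18.9 and 16 CPM (-2.43 ± 0.075). H2BC12 stood at 244, 222 and 244 CPM against 72.8, 79.1 and 70.4 CPM (-1.68 ± 0.066), and H1-2 at 212, 192 and 220 CPM against 71.9, 72.0 and 71.5 CPM (-1.53 ± 0.061). Most histone mRNAs end in a stem-loop rather than a poly(A) tail, and whether the libraries were made from poly(A) RNA is not given in the sources used here. These genes also include near-identical copies, whose reads can be divided between them.

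Interferon-response genes rose. Of 45 tested members, 23 rose and none fell (median 0.49). The core of the interferon-stimulated response element is GAAA followed after any 2 bases by GAAA, where interferon-activated transcription factors are known to bind. IFIT3 and ISG15 are shown as the 2 with the smallest adjusted p among called members whose promoter window holds it. Capitals mark matches on either strand in the 250 bases before the RefSeq start, GRCh38.p14. Exons of ISG15 overlap another annotated gene, which leaves its count uncertain.
IFIT3, chr10:89327747-89327996, plus strand: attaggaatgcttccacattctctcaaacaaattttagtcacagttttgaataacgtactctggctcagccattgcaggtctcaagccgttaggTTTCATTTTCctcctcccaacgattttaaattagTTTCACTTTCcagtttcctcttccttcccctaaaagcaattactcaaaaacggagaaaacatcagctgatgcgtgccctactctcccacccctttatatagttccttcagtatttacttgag
ISG15, chr1:1013247-1013496, plus strand: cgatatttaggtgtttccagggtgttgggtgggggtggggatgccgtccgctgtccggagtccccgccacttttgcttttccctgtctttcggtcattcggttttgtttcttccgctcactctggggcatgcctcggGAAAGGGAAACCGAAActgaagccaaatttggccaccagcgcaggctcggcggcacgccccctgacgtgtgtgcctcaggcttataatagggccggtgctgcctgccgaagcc
The core was present in 29 of 48 windows of the interferon list, which covered 37 of 48 genes, and in 3.57% of all 35116 windows, against 0 of 41 windows of the mitosis list. In ISG15 the matches overlap. No match says only that these letters are not in the window.

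IFIT3, an antiviral protein that binds its relative IFIT1, stood at 43.5, 43.5 and 44.0 CPM in the controls and 69.0, 68.2 and 67.8 CPM in the labelled libraries (log2 rise 0.65 ± 0.045, adjusted p = 0.000311). ISG15, a ubiquitin-like modifier, stood at 52.6, 50.4 and 58.2 CPM against 104, 98.1 and 100 CPM (0.90 ± 0.065). IFIT2 and OASL, both antiviral effectors, rose by 1.22 and 1.27, and STAT2, a subunit of the activating complex, by 0.54. These levels were modest in the controls. For the 2 promoters' genes every labelled library exceeded every control, which their choice by smallest adjusted p favours. In the class I antigen presentation list, 6 of 21 rose and 2 fell, or 10 and 1 without scaling. TAP1, a subunit of the peptide transporter, was at 37.2, 37.8 and 40.8 CPM against 76.0, 77.6 and 79.8 CPM (1.01 ± 0.057), and the immunoproteasome subunits PSMB9 and PSMB8 rose by 0.68 and 0.61. The falls were the chaperones CALR and PDIA3, whose main work is in the endoplasmic reticulum, PDIA3 being named after its values were seen, and 1 of them was lost without any 1 non-targeting or the third labelled library. Exons of IFIT2, TAP1, PSMB9, PSMB8, CALR and PDIA3 overlap another annotated gene, which leaves their counts uncertain.

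NF-kB genes rose in 10 of 19 cases, and none fell (median 0.53). NFKB2, the precursor of p52, stood at 81.6, 81.9 and 79.4 CPM against 154, 145 and 148 CPM (log2 rise 0.88 ± 0.045), and TRAF1, a receptor adaptor, at 16.9, 13.3 and 15.3 CPM against 37.0, 32.9 and 32.9 CPM (1.17 ± 0.11). Feedback inhibitors were among the rises, with NFKBIE at 0.90. ICAM1, the leukocyte adhesion molecule, was at 14.5, 14.2 and 13.2 CPM against 28.9, 32.8 and 27.1 CPM. Among chemokines, CXCL8, which draws neutrophils, was at 5.78, 6.77 and 7.63 CPM against 16, 20.4 and 16.2 CPM (1.38 ± 0.15), and 3 of 8 tested rose, none fell. Exons of ICAM1 overlap another annotated gene, which leaves its count uncertain.

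Cytokine genes divided, with 5 of 18 rising and 4 falling. Besides IL11, the death ligand TNFSF10 (TRAIL) was at 2.67, 2.48 and 2.04 CPM against 6.65, 6.31 and 6.07 CPM, and CSF2 rose by 1.42. CSF1, the macrophage growth factor, fell from 109, 105 and 102 CPM to 55.2, 59.1 and 45.5 CPM (log2 change -0.99 ± 0.098), and VEGFA, the vascular growth factor, from 118, 109 and 109 CPM to 66.6, 66.1 and 59.6 CPM (-0.80 ± 0.063). So the group labelled MDM2 shRNA had higher IL11 and lower CSF1 and VEGFA in every library. Exons of VEGFA overlap another annotated gene, which leaves its count uncertain.

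AP-1 and MAP kinase feedback genes moved apart. FOSL1, the FRA1 subunit typical of mesenchymal-like lines, fell from 321, 340 and 331 CPM to 138, 143 and 142 CPM (log2 change -1.23 ± 0.042), and JUN fell by 0.58. JUNB rose from 40.2, 38.5 and 37.6 CPM to 82.2, 83.5 and 77.2 CPM (1.06 ± 0.056), and FOS, FOSB, JUND and, named after its values were seen, BATF3 also rose, at 5 rises and 2 falls of 10 tested. The number of rises was 3 without the first or the second non-targeting library. Among MAP kinase phosphatases and ERK feedback genes, 5 rose and 5 fell of 20. DUSP1 rose, while DUSP4, at 943, 914 and 898 CPM against 600, 619 and 614 CPM, the Sprouty inhibitors SPRY4 and SPRY2 (-0.89 and -0.60) and PHLDA1 (-0.83) fell. Exons of JUNB and PHLDA1 overlap another annotated gene, which leaves their counts uncertain.

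Chaperones of the endoplasmic reticulum fell: 11 of 27 tested, and none rose (median -0.26). Among called members whose promoter window holds the endoplasmic reticulum stress element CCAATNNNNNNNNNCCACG, the 2 with the smallest adjusted p are shown. The element is in capitals on either strand, in the 250 bases before the RefSeq start, GRCh38.p14.
HSPA5, chr9:125241344-125241593, minus strand: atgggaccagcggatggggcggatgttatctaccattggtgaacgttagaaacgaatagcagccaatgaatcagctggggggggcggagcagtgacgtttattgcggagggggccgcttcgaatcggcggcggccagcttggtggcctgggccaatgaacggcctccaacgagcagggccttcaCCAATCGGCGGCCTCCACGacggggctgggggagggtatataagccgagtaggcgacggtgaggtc
HSP90B1, chr12:103930160-103930409, plus strand: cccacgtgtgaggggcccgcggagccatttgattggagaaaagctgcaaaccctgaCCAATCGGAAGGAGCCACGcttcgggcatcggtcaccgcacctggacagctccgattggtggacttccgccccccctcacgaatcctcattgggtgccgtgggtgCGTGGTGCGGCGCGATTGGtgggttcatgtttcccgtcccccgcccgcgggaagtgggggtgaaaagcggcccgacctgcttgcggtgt
The element was present in 9 of 32 windows of this list, which covered 25 of 27 genes, and in 0.0769% of all 35116 windows. HSPA5 (BiP), the main chaperone of the compartment, stood at 1014, 981 and 1011 CPM in the controls and 592, 542 and 578 CPM in the labelled libraries (log2 change -0.81 ± 0.042, adjusted p = 0.000114). HSP90B1 (GRP94) stood at 1192, 1173 and 1175 CPM against 772, 675 and 765 CPM (-0.68 ± 0.056). Neither group overlapped the other, which the choice of these 2 by smallest adjusted p favours. PDIA4, HYOU1, PDIA6 and SEL1L fell by 0.56, 0.48, 0.34 and 0.47. In the cytosol, HSPA8 fell from 1987, 1874 and 1980 CPM to 1416, 1263 and 1379 CPM, and over that list 5 of 28 fell and 4 rose, or 3 falls without the first non-targeting or the third labelled library and 2 rises without the third non-targeting or first labelled one. Without scaling its balance turned, to 7 rises and 3 falls. With scaling, 9.43% of all genes tested rose and 11.2% fell. The 4 rises and 5 falls of 28 were not tested against those shares. Exons of HSP90B1, HYOU1, PDIA6 and HSPA8 overlap another annotated gene, which leaves their counts uncertain.

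Genes of amino acid supply and tRNA charging, many of them targets of ATF4, fell in 17 of 35 cases and rose in 3 (median -0.22), or 11 and 6 without scaling. DDIT4, an inhibitor of mTORC1, stood at 56.8, 57.0 and 56.0 CPM against 29.3, 28.5 and 26.9 CPM (a fold of 0.499). The asparagine synthetase gene ASNS was at 57.0, 63.0 and 57.3 CPM against 31.6, 37.1 and 30.7 CPM (-0.84 ± 0.09), the amino acid exchanger SLC7A5 fell by 0.58, and the tRNA synthetases GARS1 and CARS1 by 0.45 and 0.53. PPP1R15A, which restores translation after stress, rose by 0.53. The rises numbered 1 without the first or the second non-targeting library. Exons of DDIT4, ASNS, SLC7A5, GARS1 and CARS1 overlap another annotated gene, which leaves their counts uncertain.

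Lipid genes fell more often than they rose relative to the bulk of genes. In fatty acid synthesis, 8 of 22 fell and 1 rose, including SCD, the stearoyl-CoA desaturase, at 917, 908 and 911 CPM against 548, 561 and 566 CPM (log2 change -0.71 ± 0.03), FASN at 911, 927 and 871 CPM against 629, 691 and 648 CPM (-0.46 ± 0.047) and their regulator SREBF1 (-0.65). Without scaling beyond library totals this list had 7 falls and 5 rises, and without the second labelled library it had 3 rises. Among sterol genes, 6 of 27 fell, such as the cholesterol exporter ABCA1 (-1.43), and 2 rose, IDI1 and STARD4. Without scaling the balance of that list turned, to 5 rises and 4 falls, and its median of -0.05 became 0.06. Exons of SREBF1, IDI1 and STARD4 overlap another annotated gene, which leaves their counts uncertain.

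Among genes of glycolysis and hypoxia, 12 of 38 fell and 3 rose, or 10 and 6 without scaling. SLC2A1, the glucose carrier GLUT1, fell from 399, 400 and 386 CPM to 252, 265 and 263 CPM (log2 change -0.60 ± 0.039), and ENO1 and HIF1A by 0.47 and 0.52. ADM, adrenomedullin, a known hypoxia target, went the other way, from 20.5, 23.5 and 23.0 CPM to 76.6, 77.2 and 67.1 CPM (1.72 ± 0.086). Of 7 metallothionein and zinc genes tested, 4 fell, with MT2A, a metal-binding protein, at 722, 648 and 738 CPM against 271, 337 and 266 CPM (-1.27 ± 0.10), MT1E (-1.22) and MT1X (-0.99). The antioxidant NRF2 list had 3 rises, among them HMOX1 (0.67), and 4 falls of 31, the falls numbering 2 without the first or the third non-targeting or the first labelled library. Those counts are near the shares over all genes (9.43% and 11.2%), and without scaling they turned to 8 rises and 3 falls. Exons of SLC2A1, ENO1, HIF1A and MT1X overlap another annotated gene, which leaves their counts uncertain.

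Ribosomal protein genes fell by small amounts. Of 79 tested, 31 fell and none rose (median -0.17), but 8 fell without scaling beyond library totals, and the count was 13 without the first non-targeting library, 17 without the third, and 16 without the third labelled one. Their share of all counts was 4.84, 4.6 and 4.92% against 4.6, 4.61 and 4.38%, which overlap (exact permutation p = 0.3). Ribosome assembly factors fell in 14 of 34 cases, among them NPM1, nucleophosmin, at 2125, 1924 and 1949 CPM against 1569, 1405 and 1557 CPM. Without scaling that list had 7 falls and 5 rises, and 7 to 9 falls without the first or the third non-targeting or the first or the third labelled library.

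The machinery by which MDM2 and PROTACs act was nearly level. Of 34 proteasome genes, 2 rose (PSMC2 and PSMC6, by 0.20 and 0.21) and 1 fell, although 15 rose without scaling beyond library totals, and 0 to 4 rose on leaving out any 1 library. Of 19 cullin ligase components, UBE2M, the NEDD8 conjugating enzyme, rose by 0.29 and CUL3 fell by 0.20, with 3 rises and no fall without scaling. Nuclear respiratory subunits gave 1 rise and 5 falls of 48, with 6 rises and no fall without scaling, and 0 to 3 falls on leaving out any 1 library. Mitochondrially encoded genes gave 5 falls of 13, with 2 without scaling and 2 to 10 on leaving out any 1 library, and took 5.74, 5.57 and 5.61% of counts against 5.40, 5.60 and 5.45%. Of 39 genes of RNA polymerase II elongation, 8 rose and 1 fell, TOP1 (-0.32). POLR2A, the catalytic subunit of the polymerase, stood at 341, 358 and 349 CPM against 541, 565 and 545 CPM (log2 rise 0.65 ± 0.038). The rises numbered 5 without the first or the second non-targeting library and 4 without the first labelled one, and 14 without scaling. Exons of CUL3 and TOP1 overlap another annotated gene, which leaves their counts uncertain.

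Matrix and adhesion genes fell. Collagens fell in 9 of 19 cases and rose in 1, or 3 without the second labelled library or without scaling (median -0.43), with COL13A1 at 359, 356 and 350 CPM against 161, 128 and 144 CPM and COL5A1 at 118, 123 and 119 CPM against 55.4, 54.3 and 53.5 CPM (log2 change -1.14 ± 0.043). The fibrillar collagen COL1A1 was the exception that rose, from 15.5, 14.2 and 16.5 CPM to 30.5, 30.8 and 29.3 CPM. Integrins and laminins fell in 12 of 25 cases and rose in 1, ITGB3. ITGA3, a laminin receptor subunit, fell from 956, 938 and 956 CPM to 451, 475 and 447 CPM (-1.05 ± 0.037), and the laminin chain LAMA3 from 69.7, 74.9 and 68.5 CPM to 33.4, 34.0 and 34.1 CPM (-1.07 ± 0.056). Exons of ITGB3 overlap another annotated gene, which leaves its count uncertain.

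Proteases and their inhibitors changed in both directions, 7 of 22 falling and 4 rising. PLAU, the urokinase protease, fell from 624, 586 and 598 CPM to 287, 276 and 268 CPM (log2 change -1.12 ± 0.044), and TIMP3, MMP14 and LOXL2 fell by 0.90, 0.81 and 0.74, while the collagenase MMP1 rose by 0.95. Among genes of epithelial-mesenchymal transition, VIM, the intermediate filament of mesenchymal cells, fell from 4653, 6092 and 4588 CPM to 2783, 2994 and 2734 CPM (-0.85 ± 0.11), the transcription factor SNAI1 rose from 1.10, 1.20 and 1.31 CPM to 4.48, 5.22 and 3.91 CPM (1.92 ± 0.17), and the tight junction genes CLDN1 and CLDN3 rose by 1.22 and 1.41. Of 9 keratins, KRT7 fell and 8 did not pass. Exons of PLAU, LOXL2, MMP1, VIM and KRT7 overlap another annotated gene, which leaves their counts uncertain.

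Growth factor signalling genes were mixed. AXL, a receptor kinase of mesenchymal-like lines, fell by 0.73 together with its ligand GAS6, at 460, 440 and 461 CPM against 276, 270 and 270 CPM, and EPHB2, an ephrin receptor, fell from 94.2, 97.2 and 100 CPM to 33.0, 36.4 and 31.8 CPM (log2 change -1.53 ± 0.066). FGFR3 rose from 2.66, 1.90 and 1.75 CPM to 6.19, 6.50 and 6.76 CPM (1.62 ± 0.19), and that list had 6 falls and 5 rises of 20, the rises numbering 2 to 4 on leaving out any 1 library. In the EGFR list, AREG, a ligand, rose by 0.80, and EGFR, the feedback inhibitor ERRFI1 and the neuregulin NRG2 fell by 0.51, 0.64 and 1.94. Of 12 IGF genes, 5 fell, led by IGFBP4 (-0.69), and 2 rose, with 3 falls without the first or the third labelled library and 1 rise without any 1 library other than the third non-targeting one. Exons of AXL, GAS6, EPHB2, EGFR, ERRFI1 and NRG2 overlap another annotated gene, which leaves their counts uncertain.

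TGF-beta genes fell in 9 of 24 cases and rose in 2, with PMEPA1, a feedback inhibitor and known target, at 58.6, 62.1 and 59.3 CPM against 21.4, 24.9 and 25 CPM (log2 change -1.34 ± 0.079) and TGFBR2, a receptor, falling by 0.43 and TGFBR1, its partner, rising by 1.03. The TGF-beta rises numbered 1 without the second or the third non-targeting library and 4 without scaling. Of 19 BMP and ID genes, 4 rose and 5 fell, with 2 rises without the first or the third library of either group. ID1, a BMP target, fell from 69.8, 59.4 and 72.7 CPM to 24.3, 29.2 and 23.1 CPM (-1.40 ± 0.12). Notch genes gave 8 rises and 8 falls of 25, or 9 and 5 without scaling: HES2 and HES4 rose by 1.12 and 0.92, and the ligand JAG1 and the coactivators MAML3 and MAML2 fell by 0.45, 1.20 and 0.56. The medians of the TGF-beta list (-0.09) and the BMP list (-0.09) turned to 0.02 each without scaling. In the Hippo list, 7 of 27 rose, among them the scaffold SAV1 (0.79) and the kinase NUAK2 (1.41), and 6 fell, among them WWTR1 (-0.51), which encodes TAZ. Those counts were 4 rises without the second or the third non-targeting library, and 3 falls without the first or the third library of either group. Without scaling 12 rose and 3 fell. Exons of PMEPA1, JAG1, MAML3, MAML2, SAV1 and WWTR1 overlap another annotated gene, which leaves their counts uncertain.

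Genes known as targets of the p53 family rose in 7 of 26 cases and fell in 2 (median 0.18). PIDD1, a death domain protein, stood at 24.6, 25.8 and 22.5 CPM against 54.0, 48.4 and 47.3 CPM (log2 rise 1.04 ± 0.083), and GADD45A, a stress sensor named after its values were seen, at 37.2, 35.8 and 41.3 CPM against 67.3, 52.8 and 52.8 CPM (0.60 ± 0.11). POLH, a translesion polymerase, and FDXR, a mitochondrial reductase, rose by 0.44 and 0.53, while PLK2 fell from 138, 143 and 142 CPM to 120, 120 and 115 CPM. The rises numbered 4 without the first non-targeting library, and without scaling 13 rose and 1 fell. Exons of PIDD1 and POLH overlap another annotated gene, which leaves their counts uncertain.

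Apoptosis genes moved in both directions. Of 10 pro-apoptotic BCL-2 genes, BIK, BCL2L11 (BIM) and BID rose, BCL2L11 from 14.5, 15.3 and 15.5 CPM to 19.8, 23.9 and 21.1 CPM, and none fell. The survival genes MCL1 and BCL2L1 (BCL-XL) fell, MCL1 from 464, 471 and 456 CPM to 336, 360 and 343 CPM (log2 change -0.42 ± 0.04), and BIRC3 rose by 0.86. In the list of caspases and their adaptors, 3 of 11 rose (6 without scaling) and 1 fell: the initiator CASP8 rose by 0.53 and the adaptor FADD fell by 0.37. All these shifts were under 2-fold except that of BIK, which was at or under 1.68 CPM in all libraries. Exons of BCL2L11, MCL1, BCL2L1 and FADD overlap another annotated gene, which leaves their counts uncertain.

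**Figure D5:**
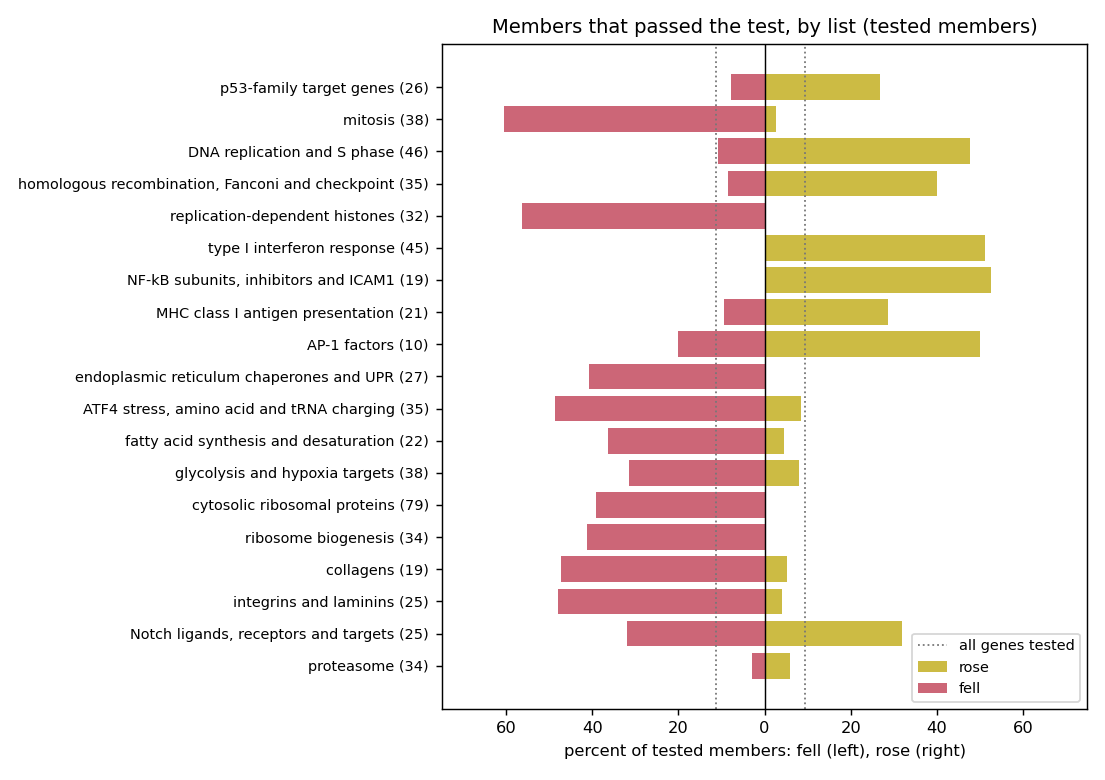
Percent of the tested members of 19 gene lists that rose (right) or fell (left) under the MDM2 shRNA label, with the number tested in brackets; dotted lines give the shares over all genes tested, 9.43% and 11.2%. Mitosis and histone genes lie to the left, and interferon, NF-kB and replication genes to the right.

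Noncoding RNAs took 0.993, 0.992 and 0.984% of counts in the controls and 1.05, 1.05 and 1.07% in the labelled libraries for lncRNA genes. Of 3090 lncRNA genes tested, 94 rose (3.04%) and 120 fell (3.88%), below the shares over all genes tested of 9.43% and 11.2%. These shares were not compared at matched level. LINC00452 rose from 6.38, 6.72 and 5.53 CPM to 27.9, 23.2 and 26.6 CPM (log2 rise 2.06 ± 0.12). LINC02535 rose from 1.70, 1.72 and 2.18 CPM to 5.27, 5.07 and 5.23 CPM. MIR100HG, the host of a microRNA cluster, spans 528 kb and fell from 71.4, 74.3 and 85.2 CPM to 36.8, 36.8 and 37.2 CPM (-1.06 ± 0.076), and NEAT1, the scaffold of paraspeckles, fell by 0.28. SOCS2-AS1 fell from 8.52, 8.24 and 7.18 CPM to 3.49, 2.52 and 3.71 CPM. MIR100HG, NEAT1 and SOCS2-AS1 share exon positions with other genes, and without strand their reads cannot be told from those of the partner.

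Against the PROTAC in the same line, which shares no library with the hairpin comparison by label, 3029 of the 3953 genes called here were also called, 76.6% of these and 65.4% of the 4635 the PROTAC changed among genes tested in both (22.6% of all tested there), and 3025 of them in the same direction. The difference between the changes was tested directly, and 1 of 20675 genes differed (0.00484%): MAFF, whose change was larger by 1.46 ± 0.14 on the log2 scale in the libraries labelled MDM2 shRNA (adjusted p = 0.0117). Its change with the PROTAC was 0.71, in the same direction. A total of 977 genes had an unadjusted p under 0.05, and DESeq2 called 36. CDH4 changed by -3.62 and -3.68 and CDC20 by -1.23 and -1.23 in the hairpin and the PROTAC comparison. Among genes of 500 kb and over the medians were -1.13 and -1.15. Besides MAFF, MAP2K6 and LYRM7, a mitochondrial assembly factor named here after its values were seen, were the genes that differed between the labelled and the PROTAC libraries directly, both lower in the labelled ones.

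Against the same label in MDA-MB-436, the changes differed widely. There 7969 of 22941 genes changed (34.7%), and the change differed between the lines in 5608 genes (24.4%), including 2010 of the 3953 called in MDA-MB-231 (50.8%). In 568 of these the sign was opposite and called in both lines. CPA4 rose in MDA-MB-231 and fell by 0.84 in MDA-MB-436, a difference of 2.54 ± 0.12. CDC20 changed by -1.23 in each line, with a difference of 0.00 ± 0.057 that did not pass.

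Gene groups were also set side by side in both lines, where 24.4% of all genes tested differed in their change. Of the 45 interferon genes, 23 rose and none fell in MDA-MB-231, 13 rose and 5 fell in MDA-MB-436, and the change differed in 22 (48.9%). Of 32 histone genes, 18 fell in MDA-MB-231, none fell and 4 rose in MDA-MB-436, and the change differed in 10 (31.2%), near the share of all genes. Mitotic genes fell in both, 23 and 27 of 38, with 16 differing (42.1%). Among 46 replication genes, 22 rose and 5 fell in MDA-MB-231 against 39 and none in MDA-MB-436, and MCM5, which fell here, rose there by 0.58. By span, 20.5% of the genes of 500 kb and over fell in MDA-MB-436, where 23.1% of all protein-coding genes fell and the shorter classes ranged from 20.4 to 27.5%, and their median was -0.04. GRIK4, a glutamate receptor subunit gene of 477 kb, changed by -4.46 in MDA-MB-231 and by 0.48 in MDA-MB-436, a difference of -4.94 ± 0.53 (adjusted p = 7.1e-05).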

How the data were processed

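Total RNA was extracted with TRIzol and made into NEBNext Ultra II libraries, sequenced on an Illumina HiSeq instrument, per the labels' protocols. The deposited values are whole-number counts per Ensembl gene, made by the authors from reads trimmed with cutadapt 2.4 and aligned with HISAT2 to GRCh38, and StringTie and edgeR are also named, per the submitters' processing notes. The counting options and the strand setting are not given in the sources used here. In the 6 libraries, 1.38 to 1.62 times as many genes held exactly 4 counts as the mean of those with 3 and 5, so a fit on counts divided by 4 was added to the alternatives.

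Counts were analysed in edgeR 4.0.16 (R 4.3.3): low genes were removed with filterByExpr, leaving 19197, libraries were scaled by TMM, and groups were compared with the quasi-likelihood F test and Benjamini-Hochberg adjustment at 0.05, on the 6 libraries with 4 residual degrees of freedom. Every adjusted p in the text comes from it unless another tool is named. Differences from the PROTAC came from a fit to the 12 MDA-MB-231 libraries, and differences from MDA-MB-436 from a fit to the 12 hairpin libraries. Alternatives included RLE factors, no scaling, other filters, DESeq2 1.42.0, limma 3.58.1 voom, a replicate block and leaving out each library. The programs were tested on simulated data. Spans, biotypes and overlaps came from GENCODE 29, and promoter windows from RefSeq, GRCh38.p14.

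Named genes were MDM2, MDM4, TP63, TP73 and CDKN1A, the 8 largest protein-coding rises and falls of at least 1 CPM, the 10 largest of at least 50 CPM, up to 6 called members of each of 56 gene lists with the smallest adjusted p and the best member of the opposite direction, lists of at most 12 measured members in full, the 5 largest lncRNA changes, and the 4 largest differences between experiments. Largest protein-coding and lncRNA changes were ranked only among called genes whose groups did not overlap. The comparison and the lists were chosen with earlier results of these data known. The direct comparison of the labelled with the PROTAC libraries was added after the data were seen. Some named items are not reported here.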

Additional observations from a re-analysis of the deposited data

Results flagged for a closer look

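The change in the libraries labelled MDM2 shRNA differed between MDA-MB-231 and MDA-MB-436, by the test of the difference itself, in 2763 genes with the larger log2 value in MDA-MB-231 and 2845 with the larger value in MDA-MB-436. For CPA4 the difference, MDA-MB-231 minus MDA-MB-436, was 2.54 ± 0.12 on the log2 scale. For MICOS10-NBL1, a readthrough transcript whose exons overlap other genes, it was 8.87 with an adjusted p of 0.0475, but 1 of the 3 labelled MDA-MB-231 libraries was as low as the controls, at 0.0157 CPM against 8.51 and 22.6 CPM in the other two. The -3.20 that MDA-MB-436 contributes did not pass by itself (adjusted p = 0.258), and there 1 of the 3 non-targeting libraries was at 5.34 CPM and the others at or under 0.0805 CPM. Between the experiments in MDA-MB-231, the change of MAFF was larger under the MDM2 shRNA label than with the PROTAC by 1.46 ± 0.14 (adjusted p = 0.0117).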

How the results depend on the processing

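No call of the hairpin comparison turned to the opposite call under any alternative run, and 58.6 to 77.9% of the 3953 calls were kept on leaving out 1 library. Without scaling 3187 genes were higher, and the median log2 changes by rising span were 0.17, 0.17, 0.12, 0.0202, -0.26 and -1.02. With no filter the 2 longest classes had medians of -0.40 and -1.23. The longest class was at -1.11 for counts divided by 4 and -1.31 without overlapping genes. The fit without overlapping genes tested only 9784 genes, with 1101 higher and 1258 lower, and kept all 2140 main calls tested in it. The class of 10 to 30 kb was at 0.0685 there and 0.0711 in the 12-library fit. At an adjusted p under 0.01, 717 were higher and 1117 lower, and the lines differed in 1749 and 1769 genes (those larger in MDA-MB-231 first). Without overlapping genes, and so over fewer genes, the lines differed in 1438 and 1550 at an adjusted p under 0.05. DESeq2 called 36 genes for the difference from the PROTAC, 40 between the control groups and 48 between the treated groups. With edgeR at an adjusted p under 0.01, the PROTAC difference gave 0 genes and the treated groups 1. Same-numbered libraries did not deviate together over genes (correlations -0.06, 0.06 and 0.02, the highest across numbers being 0.05). Whether they were made together is not given in the sources used here. These correlations cannot settle it, since a shared preparation need not shift most genes. With the replicate block 1024 genes were higher and 1425 lower, the longest class was at -1.16, and the PROTAC difference and the treated groups gave 0 and 1 genes. Leaving out 1 library gave 1037 to 1523 genes higher and 1366 to 1978 lower, medians of -0.40 to -0.36 for 200 to 500 kb and -1.21 to -1.12 for 500 kb and over, 0 to 6 genes for the PROTAC difference, 0 to 7 between controls and 1 to 7 between treated groups. MDM4, not called in any, turned positive under limma voom (0.26) and the block (0.13) and ran from -1.54 to 1.74 without 1 library. The depth leaves genes with a few counts, such as TP63, imprecise. The TP63 interval covers counting error only, whereas the MDM2 interval also takes in the spread between libraries.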
